A study of Homo sapiens with 18 samples.

Results

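This account follows 10 genes of the ATF4 programme and of serine synthesis through LNCaP prostate cancer cells in which E2F1 or E2F2 was silenced, with and without androgen. The genes were taken by symbol from the table of all genes: ATF4, DDIT3, TRIB3, ASNS, CHAC1, PHGDH, PSAT1, PSPH, SHMT2 and MTHFD2, 10 of 58037 genes listed. Each symbol matched 1 row, and all 10 were among the 15185 genes with enough counts to be tested. They were chosen for their place in the pathway, with earlier results on these libraries known.

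ATF4 is a basic leucine zipper transcription factor whose translation rises when kinases phosphorylate the initiation factor eIF2alpha, as happens during amino acid shortage or when unfolded proteins collect in the endoplasmic reticulum. It then induces genes that make, import and charge amino acids, together with feedback and death genes such as DDIT3 (which encodes CHOP), TRIB3 and CHAC1. Serine is made from a glycolytic intermediate by PHGDH, PSAT1 and PSPH in turn, and the mitochondrial enzymes SHMT2 and MTHFD2 pass its side-chain carbon to folate for nucleotide synthesis. Transcript levels of ATF4 do not show how much ATF4 protein is made.

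LNCaP is an established, androgen-responsive line. Cells were held in charcoal-stripped serum, which is poor in androgen, and transfected by Lipofectamine with a pool of siRNAs against E2F1 or E2F2, transcription factors of S-phase entry, or with a control pool. They then received ethanol as the vehicle or 0.1 nM R1881, a synthetic androgen, and were harvested 48 h later; the interval between transfection and treatment is 48 h in the sample labels and 42 h in the design text. The 6 groups were control, E2F1 and E2F2 siRNA, each with vehicle and each with R1881, at 3 biological replicates a group; a group is 1 pool in 1 line, so an effect of a pool on genes other than its target cannot be told apart from an effect of losing the target.

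To place the genes on the genome, the positions are those of GENCODE 29 on GRCh38. ATF4 lies at chr22:39519695-39522685, plus strand, DDIT3 at chr12:57516588-57521737, minus strand, and TRIB3 at chr20:362835-397559, plus strand. ASNS lies at chr7:97852118-97872542, minus strand, and CHAC1 at chr15:40952962-40956519, plus strand. The 3 enzymes of serine synthesis are on separate chromosomes: PHGDH at chr1:119648411-119744226, plus strand, PSAT1 at chr9:78297143-78330093, plus strand, and PSPH at chr7:56011051-56051604, minus strand. SHMT2 lies at chr12:57229327-57234935, plus strand, and MTHFD2 at chr2:74198562-74217565, plus strand. For DDIT3, CHAC1 and PHGDH the deposited identifier carries another version number than GENCODE 29.

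Promoter sequence was available in RefSeq windows (GRCh38.p14, 250 bases before to 50 after a transcription start) for 8 of the 10 genes, all but PSPH and SHMT2. The C/EBP-ATF response element that ATF4 binds with a partner was searched as TGATGNAA on both strands, and was present in 2 of the 8, ASNS and CHAC1, against 4.46% of 27305 genes. A loose pattern for an E2F element, TTTNNCGC with N for any base, was searched on both strands. It was present in 1 of the 8, ATF4, against 8.23% of genes, a count near that share. The 3 matches are shown as the letters that met each search. Capitals mark the match, and each sequence runs 5′ to 3′ along its gene. Each match lies in the gene's GENCODE 29 span and overlaps an exon of an annotated transcript with an earlier start. Coordinates are those of the printed sequences, which hold the match and its flanks. The ASNS match (in chr7:97872458-97872487, minus strand) begins 68 bases before the RefSeq start. The CHAC1 match (in chr15:40953251-40953280, plus strand) begins 209 bases before its RefSeq start and reads as the element on the opposite strand. The ATF4 match (in chr22:39520422-39520451, plus strand) begins 126 bases before its RefSeq start, also on the opposite strand.
ASNS: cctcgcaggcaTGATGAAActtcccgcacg
CHAC1: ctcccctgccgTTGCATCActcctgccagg
ATF4: aaacggttgggGCGTCAAAgggagggaggg
A match is a description of the letters, not evidence of binding. A gene with no match may hold an element outside its window or in other letters.

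The libraries held 10930204 to 14819879 gene counts. Levels below are CPM, a gene's counts as a share of the library's total after TMM scaling, given for replicates 1, 2 and 3 in that order; a gene was called in a comparison where its adjusted p was under 0.05, by the quasi-likelihood test of edgeR with Benjamini-Hochberg adjustment over the 15185 genes. E2F1 transcript was 13.0% of its control level with E2F1 siRNA under R1881 and 18.4% with vehicle. E2F2 transcript was 6.02% and 5.67% of control with E2F2 siRNA, both from few counts. E2F2 held 21 to 53 counts a library with control siRNA and 0 to 5 with E2F2 siRNA. The E2F2 pool also left E2F1 at 32.5% and 33.7% of control. The E2F1 pool left E2F2 at 43.0% under R1881 (adjusted p = 0.0586) and 81.5% with vehicle (adjusted p = 0.817), neither called. Luminal prostate markers (KLK3, KRT8 and 6 more) were present in all 18 libraries, summing to 4480 to 4790 CPM with vehicle and 6130 to 8120 CPM with R1881. Of the 3 basal markers, KRT5 and TP63 were at 0 in 17 of 18 libraries and KRT14 ran from 0 to 2.7 CPM; their sum was at most 0.258 CPM with vehicle and 1.29 to 2.7 CPM with R1881. Of the 3 fibroblast markers, COL1A2 was at 0 in 17 libraries, PDGFRB ran from 0.134 to 1.02 CPM and COL1A1 from 11 to 37 CPM, and their sum was 26.8 to 37.9 CPM with E2F2 siRNA and vehicle against 16.7 to 34.4 CPM in the controls, and 19.6 to 24 CPM against 13.1 to 16.3 CPM under R1881. Of the blood cell markers PTPRC was at 0 in 17 libraries and CD14 reached 0.173 CPM, and of the neuroendocrine markers CHGA was at 0 in all 18 and SYP ran from 1.68 to 4.06 CPM. VWF ran from 6.23 to 46 CPM and was highest with E2F2 siRNA and vehicle, where the 2 endothelial markers summed to 43.1 to 46 CPM against 13.4 to 17.5 in the controls, while the other endothelial marker, PECAM1, stayed at or below 0.153 CPM everywhere. All libraries are of the LNCaP line, and the part of these marker transcripts in the results was not tested.

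Replicate 3 was unlike replicates 1 and 2 in each of the 6 groups. Over the genes with a summed count of at least 10 in a pair of libraries, a chi-square was divided by its degrees of freedom. It was 1.73 to 4.14 between replicates 1 and 2, and 7.39 to 83.9 between replicate 3 and either of them. Among the 10 genes this showed most with control siRNA and vehicle. There, replicate 3 was 0.552, 0.635 and 0.748 times the mean of replicates 1 and 2 for ASNS, MTHFD2 and PSAT1, whose longest coding transcripts have the lowest GC content of the 10 (41.4% to 47.0%). It was 1.30 to 1.63 times that mean for SHMT2, ATF4, PHGDH, TRIB3 and CHAC1, which have the highest GC content (55.2% to 62.6%). The part of GC content in the results was not tested; the number of genes called with replicates 1 and 2 alone is given with the comparisons.

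**Figure D1:**
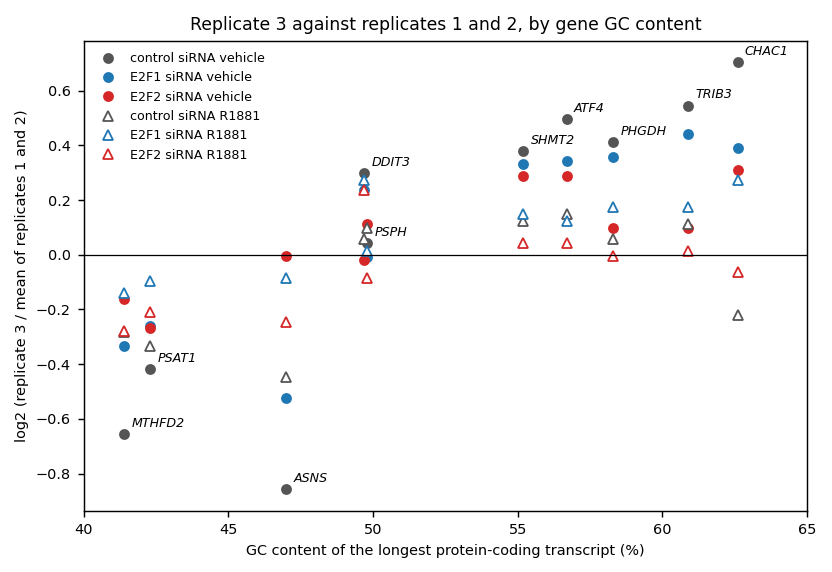
Each point is 1 of the 10 genes in 1 of the 6 groups. The horizontal axis is the GC content in percent of the longest protein-coding transcript and the vertical axis is the log2 ratio of replicate 3 to the mean of replicates 1 and 2, with filled symbols for vehicle and open symbols for R1881. The points of control siRNA with vehicle spread widest, from 0.552 times (ASNS) to 1.63 times (CHAC1) on a linear scale.

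Most of the 10 genes were lower with E2F2 siRNA. Under R1881, 7 of the 10 were lower than with control siRNA, where 14.4% of all tested genes were called lower: ATF4, ASNS, PHGDH, PSAT1, PSPH, SHMT2 and MTHFD2. DDIT3 was higher, a direction in which 15.9% of all genes were called, and TRIB3 and CHAC1 were not called. With vehicle, 6 of the 10 were lower, against 13.1% of all genes: the same genes without PSAT1. None was called higher there by edgeR with all libraries and no block, where 14.2% of all genes were, and DESeq2 called none higher. DDIT3, 1 of the 10, was higher at an unadjusted p under 0.05. It was called higher with the replicate number as a block and with replicates 1 and 2 alone. In those fits 3683 of 15185 and 3746 of 15225 genes were called higher, and 45.3% and 45.7% in either direction. The median log2 fold change of the 10 was -0.61 under R1881 and -0.62 with vehicle, beside 0.030 and 0.022 over all tested genes. With E2F1 siRNA, 1 of the 10 was called higher under R1881 (CHAC1, beside 4.42% of all genes) and 2 with vehicle (PSAT1 and PSPH, beside 2.36%). With all libraries and no block, edgeR called none lower in either, where 4.92% and 2.92% of all genes were. At an unadjusted p under 0.05, 2 of the 10 were higher with E2F1 siRNA under R1881 and 3 with vehicle, and 0 were lower in either. DESeq2 called 1 and 2, all higher. Entering the replicate number as a block, edgeR called 2 of the 10 lower with vehicle, ATF4 and SHMT2. There 1075 of 15185 genes were called lower, and 12.7% in either direction. Replicates 1 and 2 alone called the same 2 lower with vehicle and 1, PHGDH, lower under R1881. That fit called 1440 of 15225 genes lower with vehicle and 2286 under R1881, and 18.8% and 29.5% in either direction. Because these are bulk RNA samples, fewer cells that express a gene and less of its RNA per cell cannot be told apart. The design text calls the replicates biological without saying what separates them, so p-values measure the spread between these samples, which may in part be technical.

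**Figure D2:**
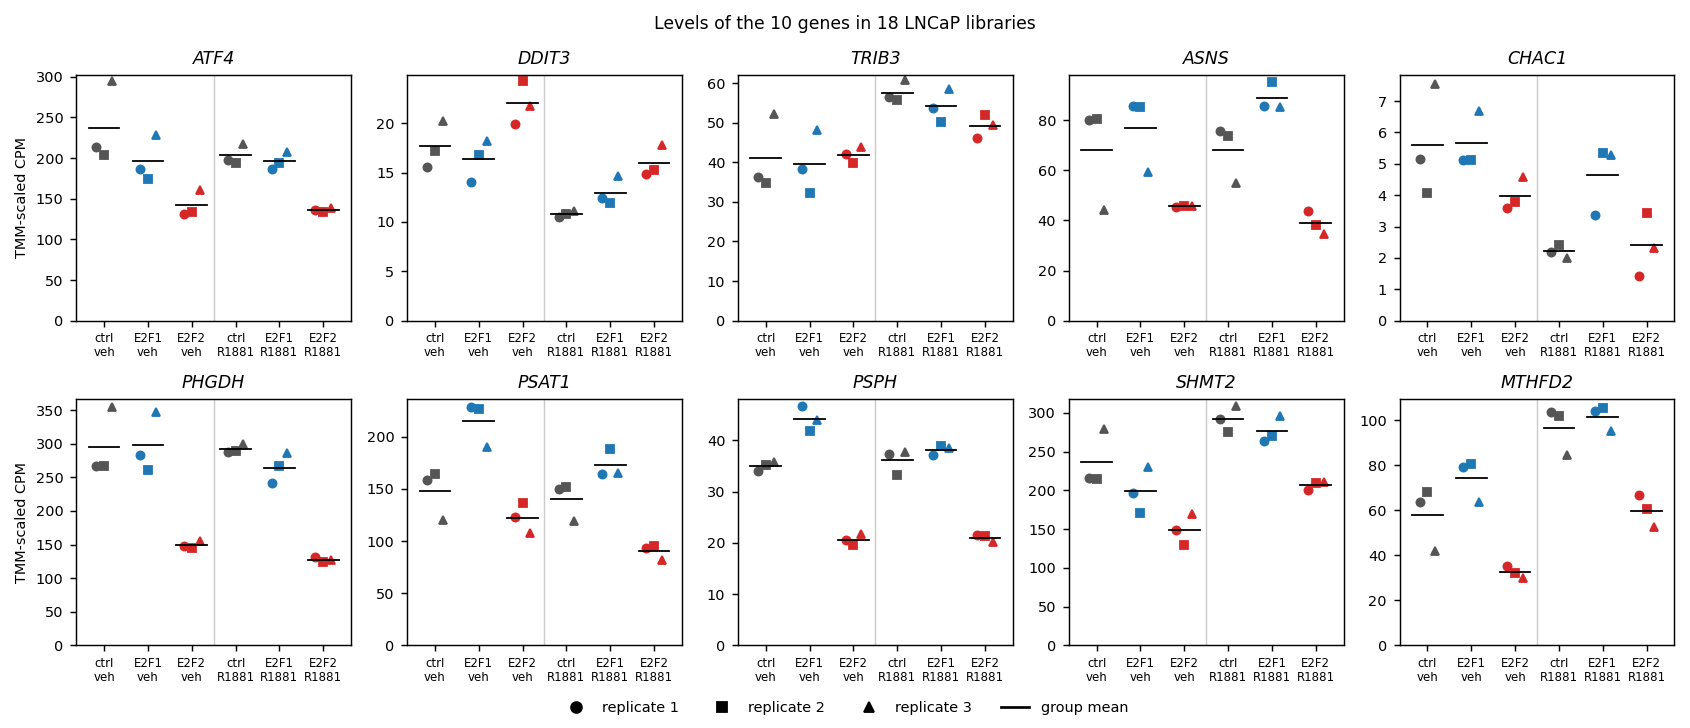
TMM-scaled CPM of the 10 genes, 1 panel a gene, in the 6 groups (vehicle left, R1881 right of the grey line); each symbol is 1 replicate and each bar is the mean of 3. With E2F2 siRNA, all PHGDH and PSPH libraries sit below every control library, whereas the TRIB3 libraries of the 3 pools overlap with vehicle.

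ATF4 itself (ENSG00000128272.14) was lower with E2F2 siRNA. With vehicle its level was 213, 204 and 295 CPM in the control replicates, 187, 174 and 229 CPM with E2F1 siRNA and 131, 134 and 161 CPM with E2F2 siRNA. Under R1881 it was 198, 194 and 218 CPM, 187, 194 and 207 CPM and 136, 134 and 138 CPM in the same order. Every E2F2 siRNA library was below every library of the other pools, and the E2F1 siRNA libraries overlapped the controls under both treatments. The log2 fold change for E2F2 siRNA against control was -0.58 ± 0.13 (adjusted p = 0.00349) under R1881, a level 67.0% of control, and -0.74 ± 0.13 (adjusted p = 0.000621) with vehicle, 59.9% of control. For E2F1 siRNA it was -0.051 ± 0.13 (adjusted p = 0.897) under R1881 and -0.27 ± 0.13 (adjusted p = 0.332) with vehicle, neither of them called. When the replicate number entered as a block, the vehicle value became -0.27 (adjusted p = 0.0377) and was called. It was also called with replicates 1 and 2 alone, at -0.21 (adjusted p = 0.00558).

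DDIT3 (ENSG00000175197.11), which encodes the pro-apoptotic factor CHOP, was higher with E2F2 siRNA under R1881. Its level under R1881 was 10.5, 10.8 and 11.1 CPM with control siRNA, 12.4, 11.9 and 14.6 CPM with E2F1 siRNA and 14.9, 15.3 and 17.8 CPM with E2F2 siRNA. Each E2F2 siRNA library was above every library of the other pools, at 148% of control (log2 fold change 0.57 ± 0.13, adjusted p = 0.00438). With vehicle it was 15.6, 17.2 and 20.2 CPM in controls, 14.1, 16.8 and 18.2 CPM with E2F1 siRNA and 20.0, 24.2 and 21.8 CPM with E2F2 siRNA, and the control and E2F2 siRNA libraries overlapped. The vehicle difference was 0.31 ± 0.13 (adjusted p = 0.0872) for E2F2 siRNA; it was called with the replicate block, at 0.32 (adjusted p = 0.0124), and without control siRNA with vehicle, replicate 3 (0.42, adjusted p = 0.0302). E2F1 siRNA gave 0.27 ± 0.14 (adjusted p = 0.287) under R1881 and -0.11 ± 0.13 (adjusted p = 0.789) with vehicle, neither called. DDIT3 exons share 355 bases with MARS on the opposite strand, and MARS held 30895 counts over the 18 libraries against 3595 for DDIT3. Whether reads were counted by strand is not given in the sources used here, so the DDIT3 values are uncertain.

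TRIB3 (ENSG00000101255.10), a pseudokinase that restrains ATF4 and AKT, was not called with either pool. With vehicle it was 36.4, 34.9 and 52.2 CPM in controls, 38.4, 32.2 and 48.1 CPM with E2F1 siRNA and 42.1, 39.7 and 43.8 CPM with E2F2 siRNA. Under R1881 it was 56.4, 55.6 and 60.7 CPM, 53.6, 50.2 and 58.5 CPM and 46.2, 51.9 and 49.3 CPM. The libraries of the 3 pools overlapped with vehicle; under R1881 the E2F2 siRNA libraries were below the controls, with a log2 fold change of -0.23 ± 0.15 (adjusted p = 0.283).

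ASNS (ENSG00000070669.16) makes asparagine from aspartate and glutamine. Under R1881 its level was 75.5, 73.7 and 54.8 CPM with control siRNA, 85.6, 95.1 and 85.3 CPM with E2F1 siRNA and 43.9, 38.1 and 34.6 CPM with E2F2 siRNA, so that the groups did not overlap. With E2F2 siRNA it was 57.1% of control (log2 fold change -0.81 ± 0.20, adjusted p = 0.00611). With vehicle the levels were 79.9, 80.3 and 44.2 CPM in controls, 85.7, 85.3 and 59.5 CPM with E2F1 siRNA and 45.5, 45.9 and 45.6 CPM with E2F2 siRNA; replicate 3 of the controls fell below all 3 E2F2 siRNA libraries. The vehicle difference for E2F2 siRNA, -0.58 ± 0.20 (adjusted p = 0.0424), was lost without control siRNA with vehicle, replicate 1 (-0.45, adjusted p = 0.141), control siRNA with vehicle, replicate 2 (-0.44, adjusted p = 0.14), E2F2 siRNA with vehicle, replicate 1 (-0.58, adjusted p = 0.104), E2F2 siRNA with vehicle, replicate 2 (-0.58, adjusted p = 0.101) or E2F2 siRNA with vehicle, replicate 3 (-0.58, adjusted p = 0.0854). E2F1 siRNA gave 0.38 ± 0.20 (adjusted p = 0.299) under R1881, called only with the block, at 0.40 (adjusted p = 0.0417), and with replicates 1 and 2 alone, at 0.28 (adjusted p = 0.00182). With vehicle it gave 0.17 ± 0.20 (adjusted p = 0.78).

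CHAC1 (ENSG00000128965.11), which degrades glutathione, was the gene called with E2F1 siRNA under R1881. Its level under R1881 was 2.20, 2.43 and 1.99 CPM with control siRNA, 3.37, 5.33 and 5.28 CPM with E2F1 siRNA and 1.44, 3.43 and 2.33 CPM with E2F2 siRNA. Each E2F1 siRNA library was above each control library, and the E2F2 siRNA libraries lay on both sides of the controls. The log2 fold change for E2F1 siRNA was 1.07 ± 0.29 (adjusted p = 0.0279), 210.1% of control. The call was lost without control siRNA with R1881, replicate 1 (1.07, adjusted p = 0.0944), control siRNA with R1881, replicate 2 (1.15, adjusted p = 0.0697), control siRNA with R1881, replicate 3 (1.01, adjusted p = 0.0878), E2F1 siRNA with R1881, replicate 2 (0.96, adjusted p = 0.117) or E2F1 siRNA with R1881, replicate 3 (0.98, adjusted p = 0.103). With vehicle CHAC1 was 5.14, 4.08 and 7.54 CPM in controls, 5.13, 5.13 and 6.69 CPM with E2F1 siRNA and 3.61, 3.77 and 4.57 CPM with E2F2 siRNA. The last gave -0.49 ± 0.27 (adjusted p = 0.198) against control, which did not pass the test.

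**Figure D3:**
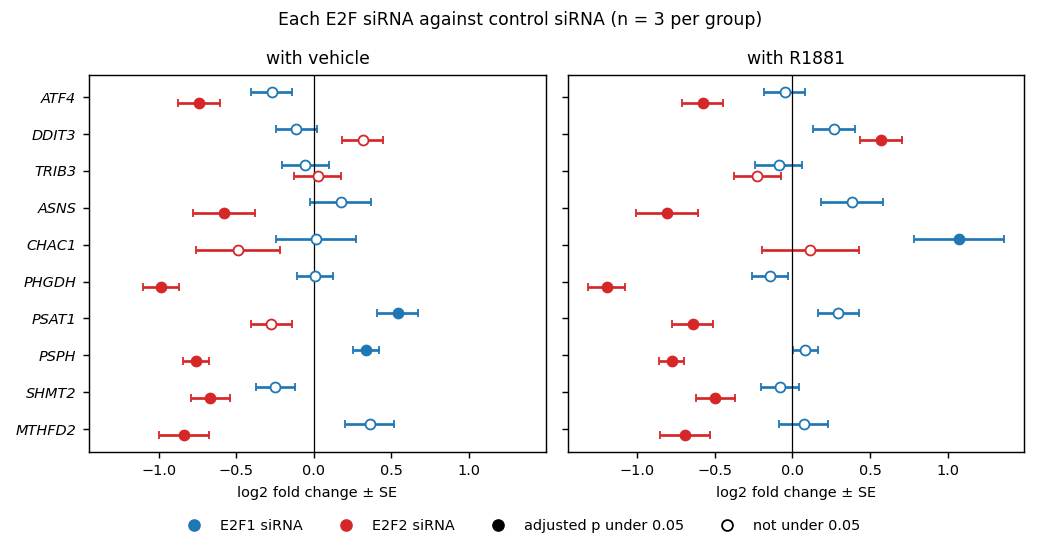
Log2 fold change ± SE of each gene for E2F1 and E2F2 siRNA against control siRNA, with vehicle and with R1881 in separate panels; filled points have an adjusted p under 0.05. The E2F2 siRNA points of PHGDH reach -1.20 under R1881, and DDIT3 lies on the other side of 0 at 0.57.

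The 3 enzymes of serine synthesis were lower with E2F2 siRNA under R1881, and PHGDH and PSPH were lower under both treatments. PHGDH (ENSG00000092621.11), the first enzyme, which oxidises 3-phosphoglycerate, was 266, 267 and 354 CPM with control siRNA and vehicle and 147, 145 and 156 CPM with E2F2 siRNA and vehicle. Under R1881 it was 287, 289 and 300.2 CPM and 131, 124 and 127 CPM. The ranges did not overlap under either treatment, and the levels were 50.5% and 43.6% of control. The log2 fold change was -0.99 ± 0.12 (adjusted p = 1.21e-05) with vehicle and -1.20 ± 0.12 (adjusted p = 1.57e-06) under R1881. E2F1 siRNA left PHGDH at 283, 261 and 347 CPM with vehicle and 241, 266 and 285 CPM under R1881, with differences of 0.0079 ± 0.12 (adjusted p = 0.988) and -0.15 ± 0.12 (adjusted p = 0.559). The R1881 difference was called with replicates 1 and 2 alone, at -0.18 (adjusted p = 0.0108).

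PSAT1 (ENSG00000135069.13), the transaminase of the second step, differed between the pools in both directions. With vehicle it was 159, 164 and 121 CPM in controls, 229, 226 and 190.0 CPM with E2F1 siRNA and 123, 136 and 107 CPM with E2F2 siRNA. All E2F1 siRNA libraries were above all controls, at 146% of control (log2 fold change 0.54 ± 0.13, adjusted p = 0.0258). That call was lost without control siRNA with vehicle, replicate 3 (0.42, adjusted p = 0.0606), E2F1 siRNA with vehicle, replicate 1 (0.49, adjusted p = 0.113) or E2F1 siRNA with vehicle, replicate 2 (0.50, adjusted p = 0.0994). The E2F2 siRNA libraries overlapped the controls with vehicle, with a difference of -0.27 ± 0.13 (adjusted p = 0.142); it was called with the replicate block, at -0.27 (adjusted p = 0.00481), and without control siRNA with vehicle, replicate 3 (-0.41, adjusted p = 0.0232). Under R1881 PSAT1 was 150.0, 152 and 119.7 CPM, 164, 189 and 165 CPM and 93.1, 95.4 and 81.6 CPM in the same order of pools, and these ranges did not overlap. E2F2 siRNA gave -0.64 ± 0.13 (adjusted p = 0.00176) there, 64.0% of control. E2F1 siRNA gave 0.30 ± 0.13 (adjusted p = 0.211), which was called only with the block, at 0.30 (adjusted p = 0.00463), and with replicates 1 and 2 alone, at 0.23 (adjusted p = 0.00487).

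PSPH (ENSG00000146733.13), the phosphatase that releases serine, separated the 3 pools with vehicle. With vehicle it was 34.0, 35.2 and 35.8 CPM in controls, 46.7, 41.8 and 44.0 CPM with E2F1 siRNA and 20.6, 19.6 and 21.7 CPM with E2F2 siRNA, 3 ranges that did not overlap. Under R1881 it was 37.3, 33.2 and 37.8 CPM, 37.2, 38.9 and 38.5 CPM and 21.5, 21.4 and 20.2 CPM, and there the control and E2F1 siRNA libraries overlapped. E2F2 siRNA lowered it to 59.0% of control with vehicle (log2 fold change -0.76 ± 0.083, adjusted p = 5.43e-06) and to 58.3% under R1881 (-0.78 ± 0.083, adjusted p = 3.67e-06). E2F1 siRNA raised it with vehicle by 0.34 ± 0.081 (adjusted p = 0.0239), to 126% of control. That rise was lost with no filter on low counts, at 0.34 (adjusted p = 0.277), and without control siRNA with vehicle, replicate 1 (0.32, adjusted p = 0.0841), control siRNA with vehicle, replicate 2 (0.34, adjusted p = 0.0624), E2F1 siRNA with vehicle, replicate 1 (0.29, adjusted p = 0.123) or E2F1 siRNA with vehicle, replicate 3 (0.34, adjusted p = 0.0527).

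SHMT2 and MTHFD2, the mitochondrial folate enzymes, were lower with E2F2 siRNA under both treatments. SHMT2 (ENSG00000182199.10), which converts serine to glycine, was 216, 214 and 279 CPM in vehicle controls, 196, 171 and 230.4 CPM with E2F1 siRNA and 149, 129 and 169 CPM with E2F2 siRNA. Under R1881 it was 292, 275 and 309 CPM, 263, 269 and 296 CPM and 200.1, 209.9 and 211 CPM. The E2F2 siRNA libraries were below all controls, at 63.0% and 70.9% of control with vehicle and R1881 (log2 fold changes -0.67 ± 0.13, adjusted p = 0.000911, and -0.50 ± 0.12, adjusted p = 0.00654). E2F1 siRNA gave -0.25 ± 0.12 (adjusted p = 0.356) with vehicle, which was called with the replicate block, at -0.25 (adjusted p = 0.0427), and with replicates 1 and 2 alone, at -0.23 (adjusted p = 0.0109).

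MTHFD2 (ENSG00000065911.11), the dehydrogenase and cyclohydrolase of the next step, was 63.9, 68.3 and 41.97 CPM in vehicle controls, 79.5, 80.7 and 63.6 CPM with E2F1 siRNA and 35.3, 32.1 and 30.1 CPM with E2F2 siRNA. Under R1881 it was 104, 102 and 84.6 CPM, 104, 106 and 95.1 CPM and 66.9, 60.4 and 52.4 CPM. Every E2F2 siRNA library was below every control. The level was 56.0% of control with vehicle (log2 fold change -0.84 ± 0.16, adjusted p = 0.00112) and 61.9% under R1881 (-0.69 ± 0.16, adjusted p = 0.00345). E2F1 siRNA gave 0.36 ± 0.16 (adjusted p = 0.264) with vehicle, called with the replicate block at 0.37 (adjusted p = 0.0123) and with replicates 1 and 2 alone at 0.28 (adjusted p = 0.00344).

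For E2F2 siRNA against control under R1881, all 8 calls held when any 1 of the 6 libraries compared was left out, and 8 were called with replicates 1 and 2 alone, where 51.4% of all genes were called. With vehicle the number of genes called ran from 5 to 8 over those fits and was 8 both with the block and with replicates 1 and 2 alone, beside 45.3% and 45.7% of all genes. For E2F1 siRNA the number ran from 0 to 1 under both treatments; it was 3 under R1881 and 5 with vehicle with the block, beside 19.9% and 12.7% of all genes, and 4 and 5 with replicates 1 and 2 alone, beside 29.5% and 18.8%.

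The E2F pools were also set directly against each other. Under R1881, 8 of the 10 genes were lower with E2F2 siRNA than with E2F1 siRNA, against 11.0% of all genes, and none was called higher by edgeR or DESeq2, against 13.1% (DDIT3 was higher at an unadjusted p under 0.05, 1 of the 10); with vehicle 7 were lower and 1, DDIT3, was higher, against 14.4% and 16.1% of all genes. The median log2 fold change of the 10 was -0.81 under R1881 and -0.63 with vehicle, beside 0.0055 and 0.017 over all genes. PSPH was -1.10 ± 0.083 with vehicle (adjusted p = 1.02e-07) and -0.86 ± 0.083 under R1881 (adjusted p = 2.23e-06). PHGDH was -0.99 ± 0.12 and -1.05 ± 0.12 (adjusted p = 9.03e-06 and 9.11e-06), PSAT1 was -0.82 ± 0.13 and -0.94 ± 0.13 (adjusted p = 0.000238 and 0.000108), and MTHFD2 was -1.20 ± 0.16 and -0.76 ± 0.16 (adjusted p = 3.86e-05 and 0.00227). ASNS differed by -0.75 ± 0.20 and -1.19 ± 0.20 (adjusted p = 0.00958 and 0.00046). With replicates 1 and 2 alone, 9 of the 10 were called under R1881 and 8 with vehicle, beside 44.7% and 50.4% of all genes. These values share the E2F1 siRNA and E2F2 siRNA libraries with the comparisons above and are not independent of them.

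Several of the smaller differences between the E2F pools depended on single libraries. ATF4 was -0.47 ± 0.13 (adjusted p = 0.0138) with vehicle, lost without E2F1 siRNA with vehicle, replicate 3 (-0.35, adjusted p = 0.0717), E2F2 siRNA with vehicle, replicate 1 (-0.41, adjusted p = 0.0622) or E2F2 siRNA with vehicle, replicate 2 (-0.43, adjusted p = 0.0563), and -0.53 ± 0.13 (adjusted p = 0.00846) under R1881. SHMT2 was -0.42 ± 0.13 (adjusted p = 0.0187) with vehicle, lost without E2F1 siRNA with vehicle, replicate 3 (-0.30, adjusted p = 0.0943), E2F2 siRNA with vehicle, replicate 1 (-0.42, adjusted p = 0.0523) or E2F2 siRNA with vehicle, replicate 2 (-0.33, adjusted p = 0.0947). Under R1881 SHMT2 was -0.42 ± 0.12 (adjusted p = 0.0233), lost without E2F1 siRNA with R1881, replicate 3 (-0.36, adjusted p = 0.0913), E2F2 siRNA with R1881, replicate 1 (-0.39, adjusted p = 0.076), E2F2 siRNA with R1881, replicate 2 (-0.43, adjusted p = 0.0571) or E2F2 siRNA with R1881, replicate 3 (-0.43, adjusted p = 0.0515). CHAC1 was -0.96 ± 0.29 (adjusted p = 0.0252) under R1881, lost without E2F1 siRNA with R1881, replicate 2 (-0.84, adjusted p = 0.093), E2F1 siRNA with R1881, replicate 3 (-0.86, adjusted p = 0.0865), E2F2 siRNA with R1881, replicate 1 (-0.70, adjusted p = 0.115) or E2F2 siRNA with R1881, replicate 3 (-0.93, adjusted p = 0.0707); with vehicle it was -0.50 ± 0.27 (adjusted p = 0.183). DDIT3 was 0.43 ± 0.13 (adjusted p = 0.0219) with vehicle, lost with no filter on low counts, at 0.37 (adjusted p = 0.132), and without E2F1 siRNA with vehicle, replicate 1 (0.33, adjusted p = 0.109) or E2F2 siRNA with vehicle, replicate 2 (0.35, adjusted p = 0.104). Under R1881 DDIT3 gave 0.30 ± 0.13 (adjusted p = 0.119), and was called with replicates 1 and 2 alone, at 0.32 (adjusted p = 0.0463). TRIB3 gave -0.14 ± 0.15 (adjusted p = 0.574).

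R1881 against vehicle with control siRNA was called for 4 of the 10 genes, in both directions, beside 27% of all genes. MTHFD2 and TRIB3 were higher with R1881 than with vehicle (13.8% of all genes were called higher) and DDIT3 and CHAC1 were lower (13.2% of all genes). These counts, 2 of the 10 in each direction, were near the shares of all genes. The median of the 10 was -0.010 beside 0.0018 over all genes. MTHFD2 rose by 0.74 ± 0.16 on the log2 scale (adjusted p = 0.00234), with all 3 R1881 libraries above all 3 vehicle libraries. TRIB3 gave 0.48 ± 0.15 (adjusted p = 0.0251), also without overlap. The TRIB3 call was lost without control siRNA with vehicle, replicate 1 (0.41, adjusted p = 0.0957), control siRNA with vehicle, replicate 2 (0.38, adjusted p = 0.101), control siRNA with R1881, replicate 1 (0.50, adjusted p = 0.0536), control siRNA with R1881, replicate 2 (0.50, adjusted p = 0.06) or control siRNA with R1881, replicate 3 (0.45, adjusted p = 0.0731). DDIT3 gave -0.71 ± 0.13 (adjusted p = 0.000811), 61.0% of the vehicle level, and CHAC1 gave -1.33 ± 0.28 (adjusted p = 0.00217), 39.7% of the vehicle level; the R1881 and vehicle libraries did not overlap for either. SHMT2 gave 0.30 ± 0.12 (adjusted p = 0.0841) and ATF4 -0.22 ± 0.13 (adjusted p = 0.238), neither called. With the replicate block both were called, SHMT2 at 0.31 (adjusted p = 0.00341) and ATF4 at -0.21 (adjusted p = 0.044), and SHMT2 was called without control siRNA with vehicle, replicate 3 (0.44, adjusted p = 0.0108). With replicates 1 and 2 alone, 5 of the 10 were called with control siRNA, 6 with E2F1 siRNA and 6 with E2F2 siRNA, beside 47.3%, 38.3% and 45.5% of all genes, so that with control siRNA the share of the 10 was near that of all genes. PHGDH, PSAT1, PSPH and ASNS gave -0.017 ± 0.12, -0.071 ± 0.13, 0.044 ± 0.081 and -0.0018 ± 0.20, with adjusted p of 0.935, 0.748, 0.744 and 0.996.

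With E2F1 siRNA, R1881 raised SHMT2 and TRIB3, 2 of the 10 (10.1% of all genes were called higher). With all libraries and no block, none was called lower by edgeR (9.75% of all genes were). These counts were near the shares of all genes. At an unadjusted p under 0.05, 3 of the 10 were lower, and DESeq2 called none lower. SHMT2 gave 0.47 ± 0.12 (adjusted p = 0.0122), lost without E2F1 siRNA with vehicle, replicate 2 (0.38, adjusted p = 0.0657) or E2F1 siRNA with R1881, replicate 3 (0.42, adjusted p = 0.0552). TRIB3 gave 0.45 ± 0.15 (adjusted p = 0.0467), lost with no filter on low counts, at 0.45 (adjusted p = 0.0814), and without E2F1 siRNA with vehicle, replicate 1 (0.43, adjusted p = 0.124), E2F1 siRNA with vehicle, replicate 2 (0.32, adjusted p = 0.199), E2F1 siRNA with R1881, replicate 1 (0.46, adjusted p = 0.103), E2F1 siRNA with R1881, replicate 2 (0.50, adjusted p = 0.0634) or E2F1 siRNA with R1881, replicate 3 (0.39, adjusted p = 0.154). MTHFD2 gave 0.45 ± 0.16 (adjusted p = 0.0585), and was called by DESeq2, at 0.44 (adjusted p = 0.0447), and with the replicate block, at 0.45 (adjusted p = 0.000902). The block also called DDIT3 at -0.33 (adjusted p = 0.0177), PSAT1 at -0.31 (adjusted p = 0.00198) and PSPH at -0.21 (adjusted p = 0.0408), so that 6 were called, beside 30.7% of all genes. DDIT3, at -0.33 ± 0.13 (adjusted p = 0.0981) with no block, was also called without E2F1 siRNA with vehicle, replicate 1 (-0.43, adjusted p = 0.0489). CHAC1 gave -0.28 ± 0.27 (adjusted p = 0.571).

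With E2F2 siRNA, R1881 raised 2 of the 10, MTHFD2 and SHMT2 (11.8% of all genes were called higher). It lowered 2, DDIT3 and PSAT1 (11.0% of all genes), and both counts were near the shares of all genes. MTHFD2 gave 0.88 ± 0.16 (adjusted p = 0.000695). SHMT2 gave 0.47 ± 0.13 (adjusted p = 0.0107), lost without E2F2 siRNA with vehicle, replicate 2 (0.39, adjusted p = 0.0617). DDIT3 gave -0.46 ± 0.13 (adjusted p = 0.0185), lost with no filter on low counts, at -0.45 (adjusted p = 0.0749), and without E2F2 siRNA with vehicle, replicate 2 (-0.38, adjusted p = 0.0928), E2F2 siRNA with R1881, replicate 1 (-0.41, adjusted p = 0.0825) or E2F2 siRNA with R1881, replicate 2 (-0.43, adjusted p = 0.0714). PSAT1 gave -0.44 ± 0.13 (adjusted p = 0.0252), lost without E2F2 siRNA with vehicle, replicate 1 (-0.44, adjusted p = 0.0679), E2F2 siRNA with vehicle, replicate 2 (-0.35, adjusted p = 0.125), E2F2 siRNA with R1881, replicate 1 (-0.46, adjusted p = 0.0572) or E2F2 siRNA with R1881, replicate 3 (-0.37, adjusted p = 0.104). CHAC1 gave -0.73 ± 0.30 (adjusted p = 0.0935) and was called with the block, at -0.73 (adjusted p = 0.0398), and without E2F2 siRNA with R1881, replicate 2 (-1.07, adjusted p = 0.0276). PHGDH gave -0.23 ± 0.12 (adjusted p = 0.184), called with the block at -0.23 (adjusted p = 0.0439) and with replicates 1 and 2 alone at -0.19 (adjusted p = 0.00863). TRIB3 gave 0.23 ± 0.15 (adjusted p = 0.321), and was called with replicates 1 and 2 alone, at 0.27 (adjusted p = 0.0115).

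**Figure D4:**
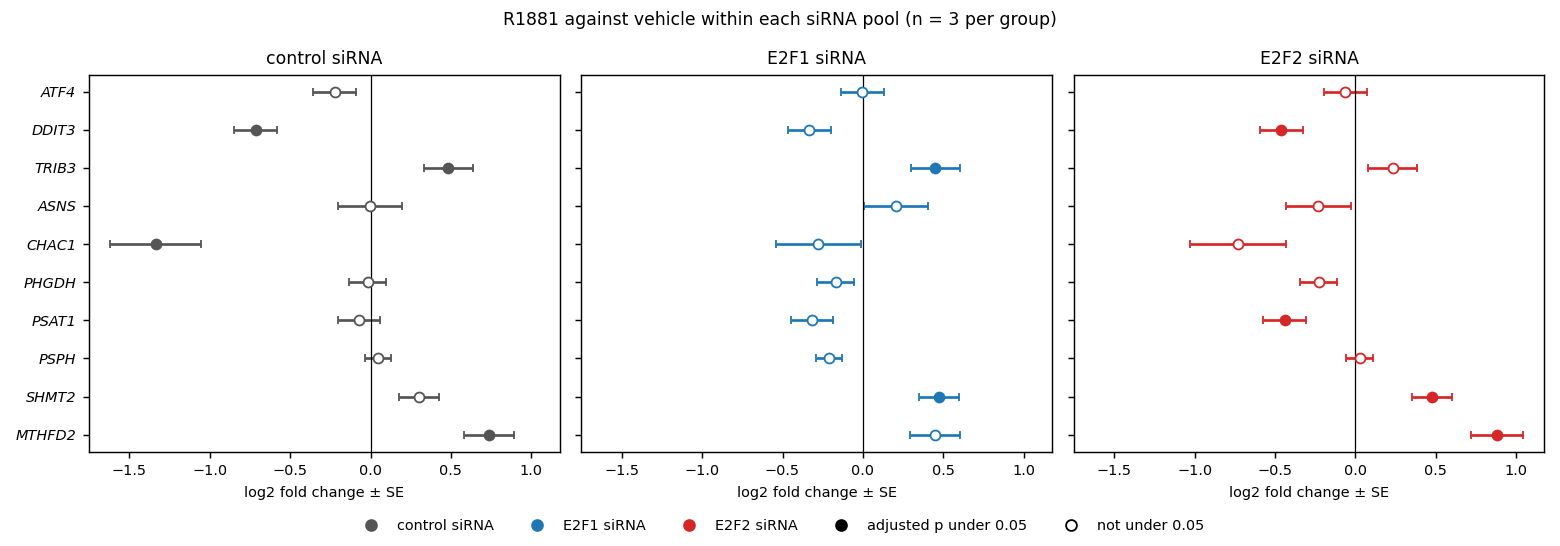
Log2 fold change ± SE of each gene for R1881 against vehicle within each siRNA pool; filled points have an adjusted p under 0.05. MTHFD2 and SHMT2 lie above 0 and DDIT3 and CHAC1 below 0 with all 3 pools, and the CHAC1 point is furthest out with control siRNA, at -1.33.

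The difference in R1881 response between an E2F pool and control siRNA was tested for each gene as an interaction term. With all libraries and no block, edgeR called none of the 10 for E2F1 siRNA, where 0.685% of all genes were called, or for E2F2 siRNA, where 0.889% were. At an unadjusted p under 0.05 there were 2 for E2F1 siRNA, CHAC1 and PSPH, and 0 for E2F2 siRNA; DESeq2 called 0 in both. CHAC1 gave 1.06 ± 0.39 (adjusted p = 0.296), a log2 R1881 effect of -1.33 with control siRNA and -0.28 with E2F1 siRNA. PSPH gave -0.25 ± 0.11 (adjusted p = 0.456). With replicates 1 and 2 alone, PSAT1 was called for E2F1 siRNA, at -0.27 (adjusted p = 0.0381), and TRIB3, PHGDH and PSAT1 were called for E2F2 siRNA, at -0.38 (adjusted p = 0.0313), -0.30 (adjusted p = 0.0111) and -0.36 (adjusted p = 0.00843), in a fit that called 12.1% and 11.6% of all genes.

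The rest of the pathway was read from 6 lists of textbook genes, whose counts stand beside the shares of all genes called: 15.9% higher and 14.4% lower for E2F2 siRNA under R1881, and 14.2% and 13.1% with vehicle. Under R1881 with E2F2 siRNA against control, the list of eIF2alpha kinases and their feedback had 4 higher and 1 lower of 10 (median 0.16 beside 0.030 over all genes). EIF2AK3, which encodes the endoplasmic reticulum stress kinase PERK, rose by 1.04 ± 0.15 (adjusted p = 5.63e-05), and PPP1R15B, a subunit of the eIF2alpha phosphatase, rose by 0.35 ± 0.089 (adjusted p = 0.00686), a call lost with no filter on low counts, at 0.28 (adjusted p = 0.0871). GCN1, an activator of the amino acid sensing kinase GCN2, changed by -0.46 ± 0.12 (adjusted p = 0.00849). These 5 calls became 3 without control siRNA with R1881, replicate 3, or E2F2 siRNA with R1881, replicate 2. With vehicle the list had 2 higher and 1 lower, and 1 call without E2F2 siRNA with vehicle, replicate 1 or 2.

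Other ATF4 targets and partners had, with E2F2 siRNA under R1881, 4 higher and 7 lower of 21 (median -0.17), and 4 higher and 5 lower with vehicle. ATF3, a stress-induced transcription factor, rose by 1.17 ± 0.092 (adjusted p = 2.15e-07) and GDF15, a secreted stress cytokine, by 1.83 ± 0.27 (adjusted p = 0.000101). STC2, a secreted glycoprotein, gave -0.86 ± 0.086 (adjusted p = 1.95e-06) and EIF4EBP1, an inhibitor of cap-dependent translation, -1.19 ± 0.20 (adjusted p = 0.000312). Of the amino acid transporters, 1 was higher and 2 were lower of 8 (median -0.057), shares near those of all genes. SLC7A1, a carrier of cationic amino acids, gave -0.63 ± 0.076 (adjusted p = 1.34e-05) and SLC7A5, which imports large neutral amino acids, 1.22 ± 0.29 (adjusted p = 0.00496).

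Of the cytosolic aminoacyl-tRNA synthetases, which load amino acids onto tRNA, 6 of 20 were lower and none was called higher by edgeR with E2F2 siRNA under R1881 (median -0.23; DESeq2 called 0 higher). YARS, for tyrosine, gave -0.33 ± 0.072 (adjusted p = 0.00227). The 6 calls became 2 without E2F2 siRNA with R1881, replicate 1, and 3 without replicate 3 of either group. With vehicle 5 were lower, and 3 without E2F2 siRNA with vehicle, replicate 2. Of the other serine, glycine and folate genes, 8 of 22 were lower and 1 was higher (median -0.20). TYMS, which makes thymidylate from a folate-bound carbon, gave -1.82 ± 0.086 (adjusted p = 2.37e-09). MTHFD1, the cytosolic folate enzyme, gave -0.95 ± 0.068 (adjusted p = 8.23e-08), and GART, of purine synthesis, -0.59 ± 0.072 (adjusted p = 1.48e-05). With vehicle this list had 2 higher and 8 lower, 10 calls that became 5 and 6 without E2F2 siRNA with vehicle, replicate 1 and 2.

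The XBP1 and ATF6 arms of the unfolded protein response, which act beside ATF4, had 4 higher and 1 lower of 13 with E2F2 siRNA under R1881 (median 0.21) and 1 higher and 2 lower with vehicle, where DESeq2 called 2 higher and 3 lower. ERN1, the sensor IRE1, gave 0.65 ± 0.090 (adjusted p = 4.91e-05), and HERPUD1 and EDEM1, of protein degradation, gave 0.64 ± 0.093 (adjusted p = 8.26e-05) and 0.76 ± 0.14 (adjusted p = 0.000701). PDIA4, a disulfide isomerase, gave -0.85 ± 0.090 (adjusted p = 3.44e-06). With the replicate block the vehicle counts became 4 higher and 1 lower for the eIF2alpha list, 4 higher and 10 lower for the other ATF4 targets, 2 higher and 9 lower for the synthetases and 3 higher and 3 lower for the XBP1 and ATF6 arms, in a fit that called 45.3% of all genes.

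With E2F1 siRNA against control under R1881 the calls were 1 higher and 0 lower of the eIF2alpha list, 3 higher and 0 lower of the other ATF4 targets, 0 higher and 0 lower of the transporters, 2 higher and 0 lower of the synthetases, 1 higher and 5 lower of the folate list and 6 higher and 1 lower of the XBP1 and ATF6 arms, beside 4.42% higher and 4.92% lower of all genes. With no filter on low counts the synthetases had 0 calls, the folate list 0 higher and 3 lower, and the XBP1 and ATF6 arms 3 higher and 1 lower; DESeq2 called 5 higher and 1 lower of the other ATF4 targets. Of the transporters, edgeR gave 2 an unadjusted p under 0.05, SLC3A2 at -0.22 and SLC1A5 at 0.44, and DESeq2 called 1 higher. The medians of the lists were 0.21, 0.18, 0.0029, 0.054, -0.19 and 0.29, beside -0.0059 over all genes. CTH, the last enzyme of cysteine synthesis, rose by 0.90 ± 0.13 (adjusted p = 0.000437) and WARS, for tryptophan, by 0.40 ± 0.086 (adjusted p = 0.00651); the WARS call was lost with no filter on low counts, at 0.38 (adjusted p = 0.0642). TYMS gave -0.71 ± 0.083 (adjusted p = 5.85e-05). HERPUD1 and HSPA5, the chief chaperone of the endoplasmic reticulum, rose by 0.67 ± 0.093 and 0.48 ± 0.079 (adjusted p = 0.000265 and 0.000956). The replicate block gave 2 higher and 0 lower of the eIF2alpha list, 8 higher and 1 lower of the other ATF4 targets, 1 higher and 1 lower of the transporters and 4 higher and 1 lower of the synthetases, in a fit that called 19.9% of all genes. The call of the eIF2alpha list was lost without any 1 of the 6 libraries compared. The folate list had 2 calls without control siRNA with R1881, replicate 2, and 3 without E2F1 siRNA with R1881, replicate 3. The XBP1 and ATF6 arms had 3 or 4 without replicate 1 or 2 of the controls or any E2F1 siRNA library.

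**Figure D5:**
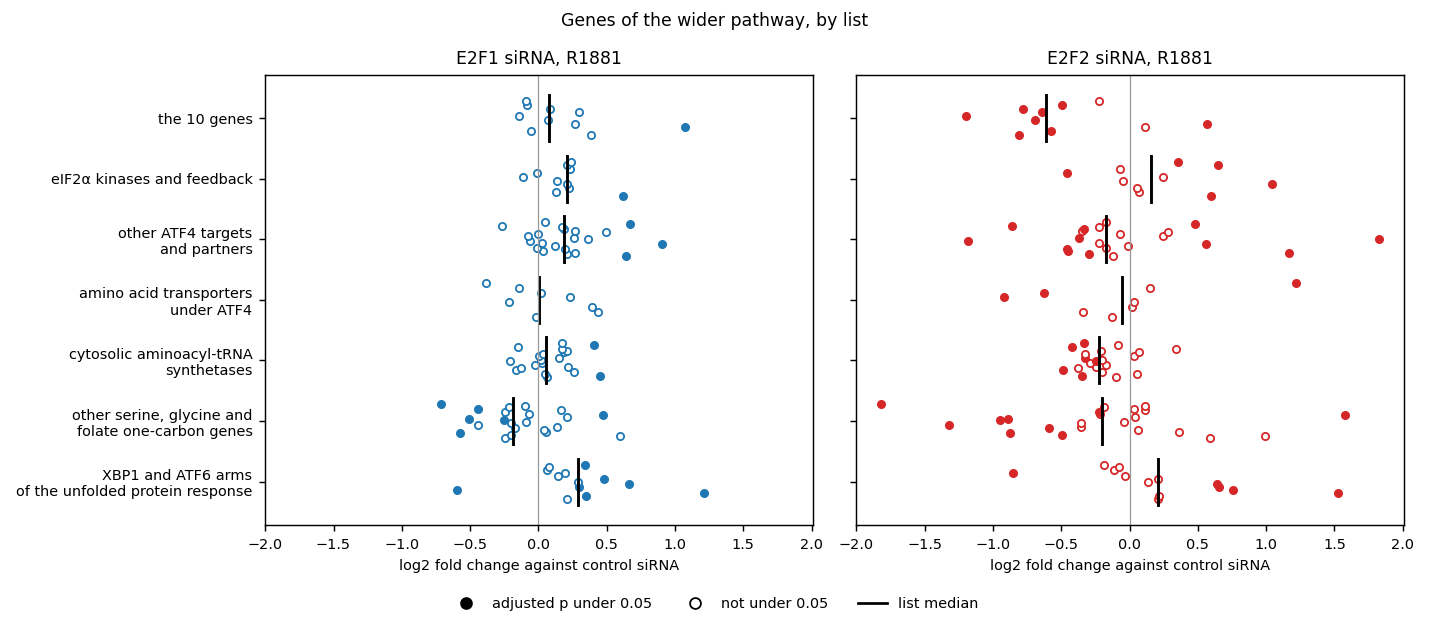
Log2 fold change against control siRNA under R1881 for each gene of the 6 lists and the 10 genes, with E2F1 siRNA in one panel and E2F2 siRNA in the other; filled points have an adjusted p under 0.05 and vertical marks are list medians. With E2F2 siRNA the median of the 10 genes is -0.61 and that of the XBP1 and ATF6 arms is 0.21.

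R1881 against vehicle with control siRNA gave 3 higher and 0 lower of 10 for the eIF2alpha list, 6 higher and 4 lower of 21 for the other ATF4 targets, 2 higher and 1 lower of 8 for the transporters and 3 higher and 0 lower of 20 for the synthetases. The folate list had 8 higher and 2 lower of 22 and the XBP1 and ATF6 arms 9 higher and 0 lower of 13, all beside 13.8% higher and 13.2% lower of all genes. The 3 calls of the synthetases were 5 by DESeq2. The medians were 0.19, 0.25, 0.057, 0.13, 0.25 and 0.43 in that order. PYCR1, of proline synthesis, rose by 0.64 ± 0.12 (adjusted p = 0.000636), while SESN2, a stress-induced inhibitor of mTORC1, gave -0.79 ± 0.18 (adjusted p = 0.00362). SLC1A5, a glutamine carrier, rose by 0.96 ± 0.14 (adjusted p = 7.84e-05) and SLC7A5 gave -1.81 ± 0.28 (adjusted p = 0.000172). SFXN2, a mitochondrial carrier related to the serine transporter SFXN1, rose by 0.73 ± 0.081 (adjusted p = 5.54e-06) and TYMS by 0.99 ± 0.084 (adjusted p = 2.94e-07). ERN1 and XBP1 rose by 0.86 ± 0.091 and 0.37 ± 0.071 (adjusted p = 3.33e-06 and 0.00094). The eIF2alpha list and the synthetases had 5 higher and 1 lower and 8 higher and 1 lower with the replicate block, which called 42.1% of all genes. Without control siRNA with vehicle, replicate 3, 6 synthetases were called, and without replicate 2 of that group 5 of the eIF2alpha list.

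Levels of different genes were compared only per length, as CPM per kilobase of annotated exon. With control siRNA and vehicle the order of the group means was ATF4 (94.4), PSAT1 (67.5), SHMT2 (48.9), PHGDH (32.1), ASNS (15.3), DDIT3 (13.5), PSPH (12.7), TRIB3 (12.0), MTHFD2 (11.9) and CHAC1 (2.72). Divided by the longest protein-coding transcript instead, a length chosen after seeing the data, PHGDH (114 ± 19.7, SD, n = 3) and SHMT2 (93.2 ± 14.6) stood above PSAT1 (67.5 ± 10.8) and beside ATF4 (118 ± 24.7). CHAC1 was again last, at 3.02 ± 0.958. The order of the genes between ATF4 and CHAC1, and the lead of ATF4, therefore depend on the length taken. The libraries came through exon capture, so these levels also carry the yield of the probes.

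Across the 18 libraries, the log2 levels of PHGDH, PSPH and ATF4 followed the mean of the other 9 genes most closely, with Pearson r of 0.934, 0.93 and 0.827. For TRIB3 the value was 0.023 and for DDIT3 it was -0.578. The genes outside the 10 whose profile was most like their mean were ADRA2A (r = 0.975), MTCH1 (0.969), EEF1B2 (0.967), CBX8 (0.965) and the non-coding RNA DANCR (0.964). Those most like ATF4 alone were PRKACA (0.984), RPS2 (0.982) and RPL8 (0.981). The points share libraries, groups and scaling, so these values are descriptions over 18 libraries. They also hold the shift of replicate 3 described above, and its part in them was not tested.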

How the data were processed

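Exon-capture libraries (TruSeq RNA Exome) were made from total RNA, per the labels' protocols. The deposited values are whole-number gene counts that the authors obtained with featureCounts of Subread 1.6.4 after CASAVA 1.8.2, TopHat2 2.0.13 and Picard 1.97 on GRCh38, per the submitters' processing notes; the sources used here give no settings, strand or annotation release. All 18 columns were matched to samples.

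Genes were kept by filterByExpr (minimum count 10, minimum total 15), scaled by TMM and fitted with 6 group means over 18 libraries by edgeR 4.0.16 in R 4.3.3 (quasi-likelihood F test, Benjamini-Hochberg adjustment over 15185 genes, threshold 0.05, 11 comparisons). The SE is the size of the log2 fold change over the square root of its F. The fit was tested on simulated data; a gene that was not called is not shown to be unchanged. Alternatives were RLE scaling, no filter, DESeq2 1.42.0, the replicate number as a block, replicates 1 and 2 only, and leaving out each library. Libraries with 1 replicate number deviated together from their group means (every pair over r = 0.1) in 8 of the 11 comparisons. The exceptions were E2F2 siRNA against control and against E2F1 siRNA under R1881 and the E2F2 siRNA difference in response. The shift of replicate 3 moves the group means, so it also enters the deviations of replicates 1 and 2. Libraries with unlike numbers were not compared, so these values do not show that a number pairs its libraries. The labels do not say what a number shares.

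The 10 genes and the 6 lists were chosen with earlier results of these data known. By rule, the text names the 10 genes, E2F1 and E2F2, up to 4 called genes of each list with the smallest p in the comparison described, 5 genes most like the mean profile of the 10 and 3 most like ATF4, among genes with a mean log2 CPM of at least 1. FGF21, SLC7A3, AMT and SDS of the lists did not pass the filter. Some genes that enter the lists' and markers' counts and sums are not reported here by name, although the rule would name them.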

Additional observations from a re-analysis of the deposited data

Results flagged for a closer look

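With all libraries and no block, edgeR called none of the 10 genes for a difference in R1881 response between an E2F pool and control siRNA. It called 4 genes of the wider lists by the test of the difference itself, of which TYMS, ADM2 and HERPUD1 are given here (each value is the log2 R1881 effect with the E2F pool minus that with control siRNA, ± SE). TYMS, of thymidylate synthesis, gave -0.80 ± 0.12 with E2F1 siRNA (adjusted p = 0.00469): its R1881 effect was 0.99 with control siRNA and 0.19 with E2F1 siRNA, and the call held with any 1 of the 12 libraries left out. ADM2, a secreted peptide, gave 1.17 ± 0.24 with E2F1 siRNA (adjusted p = 0.0323), from an R1881 effect of -0.033 with control siRNA and 1.14 with E2F1 siRNA. HERPUD1 gave 0.74 ± 0.13 with E2F2 siRNA (adjusted p = 0.0137), from 0.27 with control siRNA and 1.01 with E2F2 siRNA.

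ADM2 and HERPUD1 were lost with no filter on low counts (ADM2 1.14, adjusted p = 0.056; HERPUD1 0.72, adjusted p = 0.06). HERPUD1 was also lost without E2F2 siRNA with vehicle, replicate 1 (0.70, adjusted p = 0.0541), control siRNA with R1881, replicate 1 (0.70, adjusted p = 0.0538) or E2F2 siRNA with R1881, replicate 2 (0.69, adjusted p = 0.0544). ADM2 was lost without replicate 1 or 2 of E2F1 siRNA with vehicle (1.08 and 1.07, adjusted p = 0.105 and 0.0727), replicate 1 or 2 of control siRNA with R1881 (1.13 and 1.14, adjusted p = 0.0982 and 0.122), or replicate 1, 2 or 3 of E2F1 siRNA with R1881 (1.26, 1.18 and 1.06, adjusted p = 0.0526, 0.076 and 0.102). With 3 libraries a group, no test for single outlying libraries was made.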

How the results depend on the processing

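Over 110 values (10 genes in 11 comparisons), direction and side of the threshold were kept in 109 with RLE scaling, 108 with DESeq2, 103 with no filter on low counts, 91 with the block of replicate numbers, and 86 from replicates 1 and 2 alone, and in 683 of 780 values with 1 library left out (53 calls lost, 5 gained). No called value changed direction in any of these fits; 50 uncalled values did. The cause of these changes was not tested, except that fits without a library or without replicate 3 hold fewer samples and the fit with no filter tests more genes. Of the 10 genes CHAC1 held the fewest counts, 17 to 113 a library, so its values carry the most counting error.

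The reversals outside single-library fits were ASNS for R1881 with control siRNA (0.0049 with RLE scaling, 0.028 with no filter, 0.0046 with DESeq2, 0.016 with the replicate block), PHGDH there (0.0066 with no filter, 0.11 with replicates 1 and 2 alone), TRIB3 for E2F2 siRNA with vehicle (-0.032 with no filter), ATF4 for R1881 with E2F1 siRNA (0.0057 with the block, 0.076 with replicates 1 and 2 alone) and with E2F2 siRNA (0.029 with replicates 1 and 2 alone), and PSPH for the difference in response with E2F2 siRNA (0.071 with replicates 1 and 2 alone). The values that changed sign with 1 library left out are given as lowest to highest. For R1881 with control siRNA they ran, on the log2 scale, ASNS -0.24 to 0.14, PHGDH -0.086 to 0.13, PSAT1 -0.20 to 0.034. For E2F1 siRNA with vehicle, TRIB3 -0.22 to 0.15, ASNS -0.059 to 0.33, CHAC1 -0.17 to 0.30, PHGDH -0.12 to 0.16. For E2F2 siRNA with vehicle, TRIB3 -0.083 to 0.23. For the difference in response with E2F1 siRNA, TRIB3 -0.24 to 0.13. For the difference in response with E2F2 siRNA, ATF4 -0.015 to 0.27, ASNS -0.36 to 0.013, PSPH -0.066 to 0.030. For R1881 with E2F1 siRNA, ATF4 -0.081 to 0.12. For E2F2 against E2F1 siRNA with vehicle, TRIB3 -0.049 to 0.24. For R1881 with E2F2 siRNA, ATF4 -0.12 to 0.045, PSPH -0.0046 to 0.070. For E2F1 siRNA under R1881, ATF4 -0.093 to 0.0001, MTHFD2 -0.017 to 0.12. For E2F2 siRNA under R1881, CHAC1 -0.23 to 0.38.

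Of the 10 genes, the number called with 1 library left out ran from 3 to 5 for R1881 with control siRNA, 0 to 2 with E2F1 siRNA and 1 to 4 with E2F2 siRNA. It ran from 0 to 1 for E2F1 siRNA under R1881 and 0 to 1 with vehicle, was 8 in every fit for E2F2 siRNA under R1881, and ran from 5 to 8 with vehicle. Between the E2F pools it ran from 6 to 8 under R1881 and 5 to 8 with vehicle, and it was 0 in every fit for both differences in response. With no filter it was 1 for R1881 with E2F1 siRNA and 1 for E2F1 siRNA with vehicle. With the replicate block it was 6 for R1881 with E2F1 siRNA, 3 for E2F1 siRNA under R1881, 5 with vehicle and 1 for the difference in response with E2F2 siRNA (PSAT1, -0.37, adjusted p = 0.0436). The block also called DDIT3 between the E2F pools under R1881 (0.30, adjusted p = 0.0252), and it ended no call of the 10 genes. With replicates 1 and 2 alone it was 6 for R1881 with E2F1 siRNA, 4 for E2F1 siRNA under R1881, 5 with vehicle, and 1 and 3 for the differences in response.

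Over all genes, the block raised the calls from 4105 to 6392 for R1881 with control siRNA, 1418 to 3022 for E2F1 siRNA and 4601 to 6919 for E2F2 siRNA under R1881, and 802 to 1934 and 4145 to 6873 with vehicle; replicates 1 and 2 alone gave 7205, 4487, 7828, 2864 and 6962. With no filter, E2F1 siRNA gave 903 under R1881 and 462 with vehicle. The differences in response had 104 and 135 calls for E2F1 and E2F2 siRNA, 22 and 60 with no filter, 335 and 314 by DESeq2, 696 and 658 with the block, and 1844 and 1767 with replicates 1 and 2 alone. For R1881 with E2F1 and E2F2 siRNA, 3009 and 3465 became 4661 and 5501 with the block, and 5829 and 6927 from replicates 1 and 2 alone; between the E2F pools 3648 and 4641 became 5848 and 6907, and 6810 and 7670. The synthetase list under R1881 with E2F2 siRNA had 13 calls with the block and 14 with replicates 1 and 2 alone against 6, the XBP1 and ATF6 arms 8 and 9 against 5, and the eIF2alpha list 3 with no filter against 5.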
